A study of Mus musculus with 97 samples.

Results

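CC and CXC chemokines are small secreted proteins that direct where white blood cells go, and their genes were followed here in hearts and jejuna of mice given non-steroidal anti-inflammatory drugs, tryptophan or both. Members were all rows of the gene table whose name begins with Ccl or Cxcl followed by a digit, which selected 44 of 51368 rows by name alone. There were 31 CC rows and 13 CXC rows. They carried 38 distinct names, because 6 rows lay on unplaced scaffolds of the genome assembly as further copies of Ccl27a, Ccl21a, Ccl21b and Ccl19. Of the 44 rows, 3 were annotated as pseudogenes: Cxcl11 (a polymorphic pseudogene), Ccl19-ps1 and Ccl19-ps3.

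The study sequenced RNA of 59 whole hearts and 38 flushed jejuna of C57BL/6 mice in 4 experiments with 14 groups. Celecoxib inhibits mainly cyclooxygenase-2, naproxen inhibits both cyclooxygenases, and tryptophan is an essential amino acid. All mice were 11 weeks old and ate chow with or without drug for 3 weeks. Hearts were sequenced from poly-A RNA with a stranded kit, whereas jejunum libraries were made from total RNA after depletion of ribosomal RNA because RIN scores were below 8, so tissue and library method cannot be told apart.

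In experiment 1 the hearts came from control females, control males, naproxen females and naproxen males, with 5 animals in each group and no injections, and the drug chow held 1323 ppm naproxen for females and 1610 ppm for males. Experiments 2 to 4 used females only. In experiment 2 the hearts came from 8 controls, 7 naproxen animals and 8 animals given naproxen plus tryptophan, the latter injected intraperitoneally with 50 mg/kg tryptophan daily in the last week. In experiment 3 the hearts came from 8 controls and 8 tryptophan animals on control chow. In experiment 4 the jejuna came from 8 controls, 8 animals on celecoxib (550 ppm), 7 on naproxen, 8 injected with tryptophan and 7 given naproxen with tryptophan. In experiments 2 to 4 the groups without tryptophan were injected with its vehicle, phosphate-buffered saline. Dissection batch is labelled in experiments 3 and 4 only. The labels give animal numbers that apply within 1 treatment and experiment, so an equal number in 2 groups does not mark the same mouse.

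Chemokines bind G protein-coupled receptors on leukocytes. Inflammatory chemokines such as Ccl2, Ccl7 and Ccl12 call monocytes, mainly through Ccr2, the CXC chemokines with an ELR motif call neutrophils through Cxcr2, and the interferon-inducible Cxcl9, Cxcl10 and Cxcl11 call activated T cells through Cxcr3. Homeostatic chemokines are made without inflammation: Cxcl12 retains haematopoietic cells and guides vessels through Cxcr4, Ccl19 and Ccl21 bring Ccr7-bearing cells to lymphatic vessels and lymph nodes, and Ccl25 from the epithelium of the small intestine brings Ccr9-bearing lymphocytes to the gut. Many of these genes lie in clusters that arose by duplication.

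By chromosome, 12 members lay on chromosome 11, 11 on chromosome 5, 7 on chromosome 4, 3 on chromosome 8, 2 on chromosome 13 and 1 each on chromosomes 1, 6 and 7 (GRCm38). The genes Ccl2, Ccl7, Ccl11, Ccl12, Ccl8 and Ccl1 lay within 270.1 kb of chromosome 11, from base 82035571 to base 82305690. The promoters of 5 members whose values are described below are shown because these genes had the smallest unadjusted p-values or carry a motif of inflammatory genes. Each line holds the 250 bases before the transcription start of the RefSeq entry on GRCm38.p6, on the strand of the gene, 5′ to 3′. Capitals mark a TATA box (TATAAA) in Ccl12 and Ccl8, an NF-kappaB motif in Cxcl1 and Cxcl10, and an AP-1 motif (TGANTCA) after it in Cxcl10, where N is any base. The NF-kappaB motif has 10 bases, with GGGA at its start, TT as bases 6 and 7, CC at its end and any base between, and the Ccl6 window held none of the motifs searched.
Ccl12, chr11:82101595-82101844, plus strand: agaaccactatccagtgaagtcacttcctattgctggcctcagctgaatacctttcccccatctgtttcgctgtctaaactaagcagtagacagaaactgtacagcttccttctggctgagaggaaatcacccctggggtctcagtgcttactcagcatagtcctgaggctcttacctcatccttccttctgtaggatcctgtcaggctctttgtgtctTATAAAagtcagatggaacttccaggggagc
Ccl8, chr11:82114935-82115184, plus strand: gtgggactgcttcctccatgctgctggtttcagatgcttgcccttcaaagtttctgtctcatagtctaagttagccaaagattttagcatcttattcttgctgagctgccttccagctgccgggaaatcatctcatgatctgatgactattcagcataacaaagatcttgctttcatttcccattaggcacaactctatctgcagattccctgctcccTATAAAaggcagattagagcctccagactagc
Ccl6, chr11:83593088-83593337, minus strand: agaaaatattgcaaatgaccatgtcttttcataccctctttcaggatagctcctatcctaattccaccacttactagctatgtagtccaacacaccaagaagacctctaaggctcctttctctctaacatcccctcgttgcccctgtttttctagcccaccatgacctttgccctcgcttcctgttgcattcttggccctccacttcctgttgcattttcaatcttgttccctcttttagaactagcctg
Cxcl1, chr5:90890995-90891244, plus strand: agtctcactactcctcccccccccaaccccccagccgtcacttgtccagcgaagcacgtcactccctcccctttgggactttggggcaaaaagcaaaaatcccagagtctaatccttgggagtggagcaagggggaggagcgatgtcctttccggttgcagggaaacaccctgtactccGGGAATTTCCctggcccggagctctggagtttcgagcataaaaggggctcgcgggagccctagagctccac
Cxcl10, chr5:92348890-92349139, minus strand: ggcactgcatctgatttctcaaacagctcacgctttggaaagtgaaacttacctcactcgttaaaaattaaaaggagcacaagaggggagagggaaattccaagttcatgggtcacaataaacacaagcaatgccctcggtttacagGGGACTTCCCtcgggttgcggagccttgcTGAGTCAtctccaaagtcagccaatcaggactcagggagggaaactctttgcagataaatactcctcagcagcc
The TATA box lay 31 to 26 bases before the start in Ccl12 and 32 to 27 bases before it in Ccl8, its neighbour in the cluster. The NF-kappaB motif lay 71 to 62 bases before the start in Cxcl1 and 103 to 94 bases before it in Cxcl10.

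RefSeq promoter entries were found for 25 of the 38 member names, and the other 13 names, Ccl7, Ccl2, Ccl5 and Cxcl5 among them, had none. Searched on both strands, the NF-kappaB motif was present in 4 of the 25 (Cxcl1, Cxcl2, Cxcl3 and Cxcl10) and in 0.98% of 32851 promoters of the same length. The AP-1 motif was present in 3 of the 25 and in 6.75% of all promoters. The interferon-gamma-activated site TTCNNNGAA was present in 2 of the 25 and in 7.02% of all. TATAAA was present in 8 of the 25 and in 12.4% of all. These matches describe the letters of the windows and locate no bound factor.

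Library depth ranged from 26.3 to 76.36 x 1e6 estimated counts in hearts and from 10.11 to 28.54 x 1e6 in jejuna. Levels are CPM, the counts per 1e6 counts, after TMM scaling, and 1 read corresponded to at most 0.0423 CPM in a heart library and 0.0968 CPM in a jejunum library. The summed cardiomyocyte markers (6 of 6 detected) ranged from 16320 to 49750 CPM in hearts, and enterocyte markers summed to at most 3.69 CPM there. In jejuna the enterocyte markers (8 of 8 detected) summed to between 9544 and 32430 CPM. No pair of libraries was identical.

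Members were unevenly expressed. Those with enough counts for testing (the edgeR filter at a minimum count of 10) numbered 23 in each heart experiment and 28 in the jejunum, and 22 of them were the same in all 4 experiments. Ccl17, Ccl20, Ccl22 and Cxcl11 passed in the jejunum only, Cxcl5 passed in experiments 1, 2 and 4, and Ccl21d passed in experiments 3 and 4. The other 16 rows passed nowhere: Ccl1, Ccl3, Ccl4, Ccl26, Cxcl2, Cxcl3, Cxcl15, Cxcl17, the chromosome 4 row of Ccl21b, both Ccl19 pseudogenes and 5 scaffold copies. Among those, the scaffold copy of Ccl19 and Ccl19-ps3 were at 0 in every library. A mean of at least 1 CPM was reached by 15, 14 and 15 of the tested members in heart experiments 1 to 3 and by 19 in the jejunum. In all, 21 of the 44 rows stayed under a mean of 1 CPM in each experiment, including the inflammatory Ccl3 and Ccl4 and the neutrophil attractant Cxcl2.

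On the CPM scale, hearts were dominated by Cxcl12. It made up a median of 72.6%, 71.3% and 65.6% of the summed member CPM in experiments 1 to 3, and the sum had medians of 218.2, 247.3 and 230.9 CPM. Per kilobase of annotated exon, the scale on which genes can be compared, the highest heart levels were Cxcl12 at 19.7 CPM per kb, Ccl21a at 15.4, Ccl6 at 6.29, the scaffold copy of Ccl21b at 5.13 and Cxcl14 at 2.97. This order counts each Ccl21 copy as its own row, although the split of reads between copies is uncertain. Summed over its 6 rows, Ccl21 stood at 22.8 CPM per kb in hearts, above Cxcl12, and at 12.2 in jejuna. The exonic length of Cxcl12, 8176 bases, takes in its long isoforms, which lowers its value per kilobase. Ccl6 is a CC chemokine of macrophages and granulocytes, and Cxcl14 is a homeostatic chemokine of epithelium and stroma.

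Jejuna held a different set. Ccl25 made up a median of 58.3% of the summed member CPM there, against 1.16%, 0.916% and 1.11% in the 3 heart experiments, and Cxcl12 made up 7.21%. The sum had a median of 742.1 CPM. Per kilobase, the highest jejunum levels were Ccl6 at 61.2 CPM per kb, Ccl25 at 56.9, Cxcl14 at 13.5, Cxcl16 at 13.1 and Ccl21a at 10.5, and Cxcl12 stood at 7.23. The order of the first 2 rests on their annotated exonic lengths, 1795 bases for Ccl6 and 7445 bases for Ccl25. By CPM, Ccl25 averaged 423.8 and Ccl6 109.8. Cxcl16 is a membrane-anchored chemokine for Cxcr6-bearing cells.

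On the CPM scale, Ccl25 averaged 423.8 in the jejunum and between 2.35 and 2.60 in the heart experiments. Ccl28, a mucosal chemokine for antibody-secreting cells, averaged 18.2 CPM in the jejunum and at most 0.260 CPM in hearts. Cxcl11 averaged 4.91 CPM in the jejunum and at most 0.0116 CPM in hearts. Ccl20, the ligand of Ccr6 made by epithelium over lymphoid follicles, averaged 2.94 CPM in the jejunum and at most 0.00517 CPM in hearts. Cxcl12 ran the other way, at 59.1 CPM in the jejunum and 149.2 to 172.1 CPM in the hearts. These differences join tissue with library method and were not tested.

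**Figure D1:**
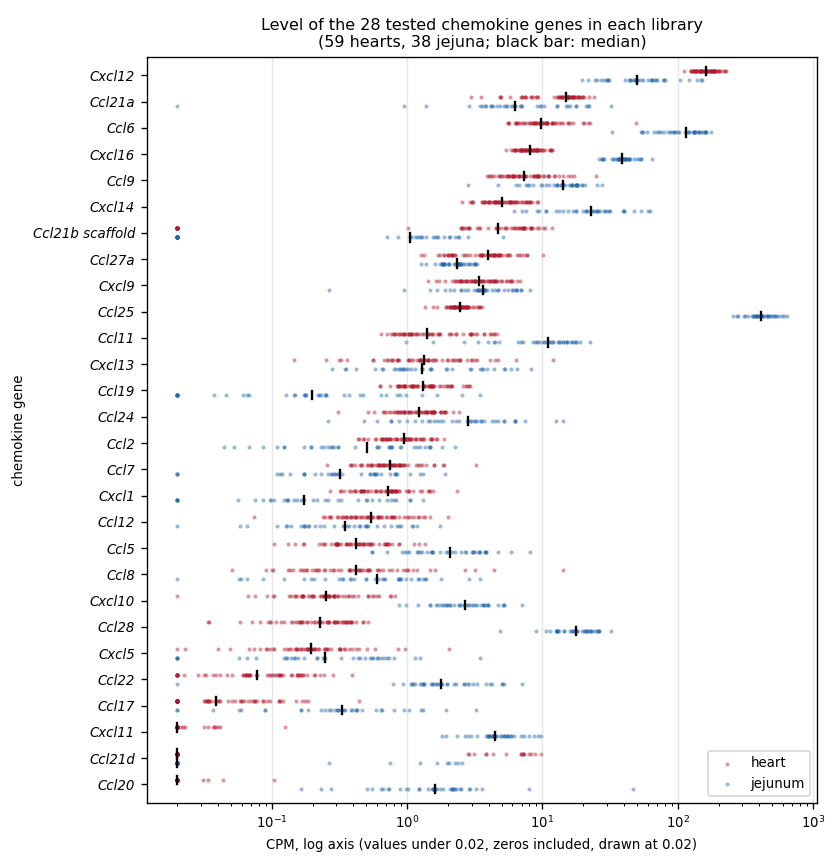
Level of each of the 28 members tested in the jejunum, in CPM on a log axis, with 1 point per library for the 59 hearts and 38 jejuna and a black bar at the median; values under 0.02 CPM are drawn at 0.02. Cxcl12 leads in hearts, Ccl25 and Ccl6 lead in jejuna, and Ccl20 and Cxcl11 lie at the floor in hearts.

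Animals of the same group differed in how stable the members were. The median coefficient of variation over tested members was 41.1% in control females and 27.5% in control males of experiment 1, 36.5% and 28.5% in controls of experiments 2 and 3, and 47.9% in control jejuna. Cxcl12 varied least among control females of experiment 1 (10.1%) and controls of experiment 3 (9.92%), and Ccl25 varied least among control jejuna (18.5%). Ccl8 varied most in the control females of experiment 1, at 120.1%. In control jejuna Ccl20 varied most: 1 animal stood at 46.8 CPM and the other 7 lay between 0.165 and 3.58 CPM.

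Treatment differences were tested across all genes of an experiment with edgeR's quasi-likelihood test, two-sided, and adjusted by the Benjamini-Hochberg method over all tested genes, with a gene called at an adjusted p under 0.05. In each of the 14 comparisons edgeR called 0 members, and limma voom also called 0. DESeq2 called 1 member in 4 comparisons: Ccl12 in experiment 2 hearts (naproxen plus tryptophan against naproxen) and Ccl7 in the jejunum (naproxen against control, naproxen plus tryptophan against naproxen, and the interaction). The values below therefore describe the members with the smallest p-values, and counts at an unadjusted p under 0.05 are set beside the share of all genes at that threshold. In tissue RNA, fewer cells of a type and less RNA per cell cannot be told apart.

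In hearts of experiment 1 females, the member with the smallest p for naproxen was Cxcl9. Control females stood between 4.08 and 4.39 CPM, with 1 animal at 5.74 CPM, and naproxen females at 1.42, 1.73, 3.19, 3.63 and 3.68 CPM. The groups did not overlap, as was the case for 0.561% of all genes in the lower direction, and no other member separated here. The log2 difference was -0.72 (SE 0.27, 95% interval -1.29 to -0.16), with an unadjusted p of 0.015 and an edgeR adjusted p of 0.628. In this comparison 0 of 23 members were called, against 0.0132% of all genes, and 1 of 23 was lower at an unadjusted p under 0.05, against 4.03% of all genes. There were 15 of 23 members above 0, against 45.9% of all genes.

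Ccl8, the inflammatory CC chemokine MCP-2, stood at 0.102, 0.131, 0.220, 1.49 and 14.2 CPM in naproxen females and at 0.168 to 2.66 CPM in control females. The log2 difference was 1.91 (unadjusted p 0.0711). The high animal, naproxen female 3, also held 49.0 CPM of Ccl6 against 5.59 to 13.2 CPM in the other 4, and its summed neutrophil markers (8 of 8 detected) stood at 314.5 CPM, against a group median of 8.61 CPM. In the comparison of the groups, 6 of 6 tested neutrophil markers were higher at an unadjusted p under 0.05 (the share of all genes is not given here), with a median log2 difference of 2.95, and 0 were called. That difference includes naproxen female 3, whose sum lay far above the group median. It was not recomputed without her, so it does not describe the naproxen females as a group. Without that animal the log2 difference of Ccl8 was -0.79 and that of Ccl6 moved from 0.75 to -0.03, so the direction of both rested on 1 library. The part of neutrophil RNA in the levels of that animal was not tested.

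In males of experiment 1, Ccl5, a T cell and monocyte attractant, had the smallest p. Control males stood at 0.301, 0.354, 0.476, 0.483 and 0.529 CPM and naproxen males at 0.103, 0.169, 0.173, 0.293 and 0.3035 CPM. Only the lowest control and the highest naproxen male overlapped. Ccl5 differed by -1.02 on the log2 scale (SE 0.41, 95% interval -1.87 to -0.18, unadjusted p 0.0204, edgeR adjusted p 0.556). Ccl19 had a log2 difference of -0.58 (unadjusted p 0.049), which was -0.38 without control male 8, and Cxcl10 had one of -1.08 (unadjusted p 0.0557). At an unadjusted p under 0.05 2 members of 23 were lower, against 2.94% of all genes, and 0% of all genes were called. Of the 23 members, 4 had a difference above 0, against 47.1% of all genes. The summed macrophage markers (8 of 8 detected) ranged from 224.2 to 308.7 CPM in control males and from 157.7 to 216.3 CPM in naproxen males, without overlap, and no share of all genes stands beside that. The macrophage markers had a median log2 difference of -0.46, 1 of 8 was lower at an unadjusted p under 0.05 and 0 were called, and their part was not tested.

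The naproxen difference of males minus that of females was tested directly. No member was called (0% of all genes were), and 2 of 23 members were lower at an unadjusted p under 0.05, against 2.12% of all genes. These were Ccl5, with a log2 difference of differences of -1.47 (95% interval -2.64 to -0.31, edgeR adjusted p 0.759), and Ccl19, at -0.92 (95% interval -1.73 to -0.11, edgeR adjusted p 0.759).

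Control males and control females of experiment 1 were also set side by side, a comparison chosen after their values had been seen. Cxcl14 averaged 7.90 ± 0.849 CPM (SD) in control males and 4.74 ± 1.29 CPM in control females, and the groups did not overlap. Its log2 difference was 0.74 (SE 0.20, 95% interval 0.31 to 1.16), with an unadjusted p of 0.00165 and an edgeR adjusted p of 0.285. Ccl11 (eotaxin-1), the eosinophil attractant that binds Ccr3, averaged 4.17 ± 0.541 CPM in males and 2.20 ± 0.894 CPM in females, again without overlap. The difference was 0.93 on the log2 scale (SE 0.28, unadjusted p 0.00311, edgeR adjusted p 0.336). No member of 23 was called, against 0.152% of all genes, and 2 were without overlap and higher in males, against 0.627% of all genes. In naproxen males Cxcl14 ranged from 6.21 to 8.42 CPM and in naproxen females from 2.54 to 5.97 CPM.

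In hearts of experiment 2, most members lay higher with naproxen, without any call. Ccl12, the mouse monocyte attractant MCP-5, ranged from 0.336 to 1.01 CPM in controls (median 0.533), from 0.699 to 1.99 CPM with naproxen (median 1.00) and from 0.267 to 0.711 CPM with naproxen plus tryptophan (median 0.483). All 7 naproxen animals stood above the control median, and the groups overlapped. Against control, the log2 difference of naproxen was 0.96 (SE 0.27, 95% interval 0.41 to 1.51), with an unadjusted p of 0.00138 and an edgeR adjusted p of 0.808.

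Ccl8, next to Ccl12 in the genome, ranged from 0.180 to 1.02 CPM in controls (median 0.412), from 0.384 to 4.41 CPM with naproxen (median 1.10) and from 0.161 to 1.19 CPM with both agents (median 0.432). The naproxen animals spread upward from the control range, with 6 of 7 above the control median. Its log2 difference for naproxen against control was 1.72 (SE 0.51, unadjusted p 0.00257, edgeR adjusted p 1). Ccl6 ranged from 6.31 to 10.8 CPM in controls (median 8.34), from 8.10 to 22.3 CPM with naproxen (median 10.0) and from 5.68 to 20.0 CPM with both agents (median 9.22), and the highest 3 naproxen animals stood at 16.7, 21.6 and 22.3 CPM. Its log2 difference against control was 0.73 (SE 0.27, unadjusted p 0.0143).

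At an unadjusted p under 0.05 there were 7 of 23 members, all higher (Ccl12, Ccl8, Ccl6, Ccl9, Cxcl1, Ccl7 and Ccl21a), against 2.04% of all genes that were higher at that threshold and 0% that were called. In all, 20 of 23 members had a difference above 0, against 52.3% of all genes, and their median log2 difference was 0.33 against 0.01 for all genes. By role, the 7 tested inflammatory CC chemokines were all above 0, with a median of 0.71, and 5 of them were among those 7. The remaining log2 differences were 0.71 for Ccl9, a macrophage chemokine, 0.52 for Cxcl1, a neutrophil attractant, 0.70 for Ccl7 and 0.24 for Ccl21a. With its copies summed, Ccl21 stood at 0.22 and was no longer under that threshold (edgeR unadjusted p 0.0612). The members were measured in the same libraries, so their signs are not independent of each other.

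Markers of other cells differed between these groups as well. The summed neutrophil markers ranged from 3.03 to 6.56 CPM in controls, from 8.74 to 24.9 CPM with naproxen and from 1.81 to 16.9 CPM with both agents. Controls and naproxen animals thus did not overlap, and no share of all genes stands beside that. Of the 6 neutrophil markers tested, 5 were higher with naproxen at an unadjusted p under 0.05, with a median log2 difference of 2.22 over the list, and 0 were called. Macrophage markers (8 of 8 tested) had a median log2 difference of 0.19 and none was at that threshold. The part of infiltrating or circulating cells in the chemokine levels was not tested.

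Against naproxen alone, hearts given naproxen plus tryptophan lay lower for several of these chemokines, again without a call. All 8 animals stood below the naproxen median of Ccl12, and the groups met only between 0.699 and 0.711 CPM. The log2 difference of Ccl12 was -1.28 (SE 0.27, 95% interval -1.84 to -0.72), with an unadjusted p of 8.15e-05 and an edgeR adjusted p of 0.069, the smallest adjusted p of any member in the series. DESeq2 gave it an adjusted p of 0.00454, and edgeR gave 0.0326 at the lowest when 1 library was left out. Over the fits with 1 library left out, between 0 and 42 of all genes were called in this comparison.

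Ccl8 differed by -1.62 (SE 0.51, unadjusted p 0.00397, edgeR adjusted p 0.331) between those groups. Cxcl1 averaged 0.432 ± 0.116 CPM (SD) with both agents and 0.701 ± 0.185 CPM with naproxen, all 8 animals below the naproxen median. Its log2 difference was -0.69 (unadjusted p 0.00487, edgeR adjusted p 0.352). Next came Ccl7 (-0.81) and Cxcl5, which calls neutrophils (-0.57), and Cxcl9 ran the other way (0.43).

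Of the 23 members, 5 were lower and 1 higher at an unadjusted p under 0.05, against 4.79% and 5% of all genes, and 0.0933% of all genes were called. Only 4 had a difference above 0, against 48.8% of all genes, and the median was -0.32. None of the 7 inflammatory CC chemokines was above 0 (median -0.67). The neutrophil markers were lower too, 4 of 6 at an unadjusted p under 0.05 with a median of -1.16, and their part was not tested. This comparison and naproxen against control share the same naproxen animals, so their signs are not independent.

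Naproxen plus tryptophan against control left the members near 0. The 14 of 23 above 0 compare with 49% of all genes, the median was 0.01, and 1 member was higher at an unadjusted p under 0.05, against 10.4% of all genes, and 0.255% of all genes were called. That member was Ccl21a, the lymphatic ligand of Ccr7, with 12.7 to 18.8 CPM in controls (median 14.5) and 15.5 to 22.1 CPM with both agents (median 16.9). Its log2 difference was 0.23 (95% interval 0.00 to 0.45, edgeR adjusted p 0.287). With its copies summed, Ccl21 stood at 0.20 and was no longer under that threshold (edgeR unadjusted p 0.0766). Ccl5 at -0.62 (unadjusted p 0.0893) became -0.39 without control 5, and Ccl27a, a skin-type epithelial chemokine, at 0.26 (unadjusted p 0.119) became 0.16 without naproxen plus tryptophan animal 1.

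**Figure D2:**
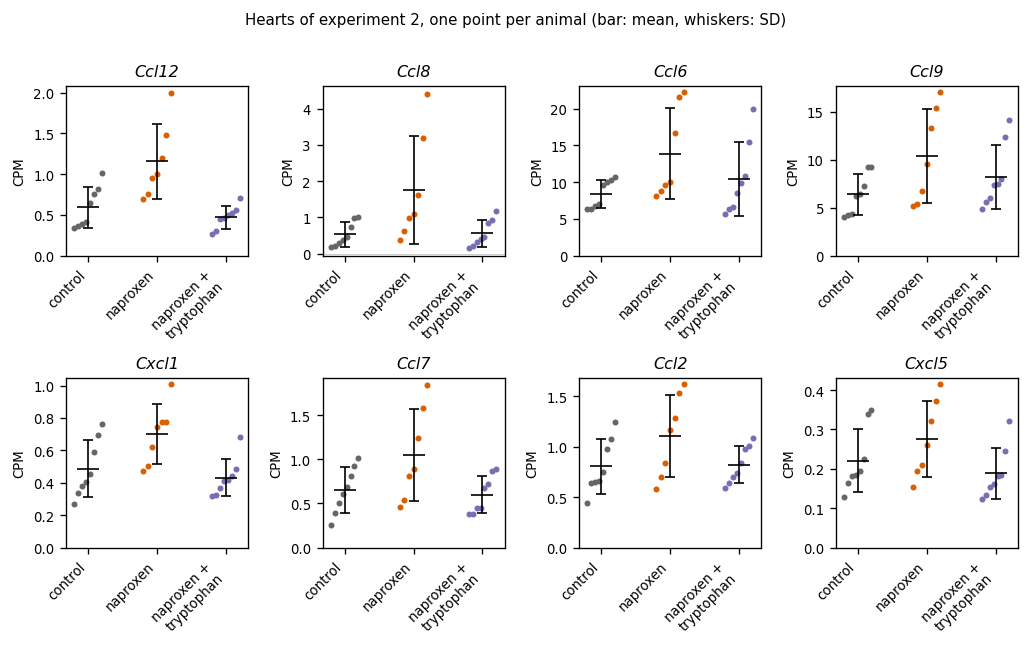
CPM of 8 members in each heart of experiment 2 (8 control, 7 naproxen, 8 naproxen plus tryptophan animals), 1 point per animal, with mean and SD. Ccl12 and Ccl8 reach 1.99 and 4.41 CPM with naproxen, while the other groups stay at or below 1.01 and 1.19 CPM.

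In hearts of experiment 3, tryptophan alone gave small differences. Ccl8 ranged from 0.0507 to 0.437 CPM in controls (median 0.162) and from 0.0911 to 0.668 CPM with tryptophan (median 0.3885), with 7 of 8 treated animals above the control median. Ccl8 thus differed by 0.98 on the log2 scale (SE 0.37, 95% interval 0.19 to 1.77, unadjusted p 0.0179, edgeR adjusted p 1). It was higher in 4 of 4 dissection batches, each with 2 animals per group, but unevenly. The mean log2 difference was 2.37 in batch 1 and 0.46, 0.10 and 0.52 in batches 2 to 4. Cxcl9 averaged 4.08 ± 0.888 CPM with tryptophan and 3.23 ± 0.875 CPM in controls, a log2 difference of 0.35 (unadjusted p 0.0255, edgeR adjusted p 1), and all 8 treated animals stood above the control median. Ccl5 had a log2 difference of 0.44 (unadjusted p 0.0789), and both Cxcl9 and Ccl5 were higher in 4 of 4 batches. For Ccl5 the batch differences were 1.24 in batch 1 and 0.13, 0.26 and 0.05 in batches 2 to 4.

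Both members at an unadjusted p under 0.05, of 23 tested, were higher, against 1.63% of all genes that were higher at that threshold, and 0% of all genes were called. There were 14 of 23 members above 0, against 52% of all genes, and the 7 tested inflammatory CC chemokines were all above 0 with a median of 0.23. Neutrophil marker sums were 4.12 to 19.5 CPM in controls and 7.02 to 21.1 CPM with tryptophan.

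In the jejunum no member was called for naproxen against control, and the members with the smallest p lay lower with naproxen. Ccl7, the monocyte attractant MCP-3, ranged from 0.110 to 1.06 CPM in controls (median 0.723), from 0 to 0.301 CPM with naproxen (median 0.172), from 0 to 1.25 CPM with tryptophan (median 0.268), from 0 to 0.741 CPM with celecoxib (median 0.275) and from 0.280 to 1.897 CPM with naproxen plus tryptophan (median 0.572). The naproxen animals all lay below the control median, and the control group reached into their range with 1 animal. The log2 difference of naproxen against control was -2.01 (SE 0.50, 95% interval -3.04 to -0.99), with an unadjusted p of 0.000334 and an edgeR adjusted p of 0.168. DESeq2 gave an adjusted p of 0.0205. At these levels a jejunum library held few reads of Ccl7, since 1 read was worth 0.0322 to 0.0968 CPM.

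Ccl6 averaged 80.1 ± 24.5 CPM with naproxen and 130.0 ± 27.1 CPM in controls, with 7 of 7 naproxen animals below the control median. Its log2 difference was -0.74 (SE 0.23, 95% interval -1.20 to -0.28, unadjusted p 0.00259, edgeR adjusted p 0.181). Ccl5 ranged from 2.28 to 5.84 CPM in controls and from 0.547 to 3.47 CPM with naproxen, a log2 difference of -1.23 (unadjusted p 0.00414, edgeR adjusted p 0.197). All 3 genes were lower in each of the 4 dissection batches.

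Ccl25, the most abundant chemokine of the jejunum by CPM, ranged from 315.3 to 635.6 CPM in controls (median 493.4) and from 257.7 to 461.1 CPM with naproxen (median 412.9). The ranges overlapped, and the log2 difference was -0.39 (SE 0.14, 95% interval -0.68 to -0.11, unadjusted p 0.00878, edgeR adjusted p 0.214). Enterocyte marker sums ranged from 12010 to 32060 CPM in controls and from 9544 to 26730 CPM with naproxen, and their part was not tested. In total 4 of 28 members were at an unadjusted p under 0.05, all lower, against 8.07% of all genes that were lower at that threshold and 0.0116% that were called. The 7 tested inflammatory CC chemokines were all below 0, with a median of -0.92. Of the 6 tested lymphoid homeostatic rows, 5 were above 0, with a median of 0.40. Those 6 include Ccl21a, the scaffold copy of Ccl21b and Ccl21d, between which the split of reads is uncertain. With its copies summed, Ccl21 had a log2 difference of -0.08 (SE 0.51), so the count and median depend on that split. The B cell marker sums ranged from 3.41 to 157.5 CPM in controls (median 5.57) and from 4.75 to 92.9 CPM with naproxen (median 49.1). All 8 B cell markers were above 0, with a median log2 difference of 1.04, 0 were called, and their part was not tested.

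Celecoxib against control gave Ccl7 at a log2 difference of -1.17 (SE 0.46, 95% interval -2.10 to -0.25, unadjusted p 0.0144, edgeR adjusted p 0.957). Cxcl16 averaged 35.0 ± 5.16 CPM with celecoxib and 42.8 ± 10.8 CPM in controls, a log2 difference of -0.27 (unadjusted p 0.0357). Ccl19, the Ccr7 ligand of lymphoid stroma, had a log2 difference of -1.93 (unadjusted p 0.049), which was -0.73 without control 5, the animal with 3.43 CPM. Without control 6, Cxcl16 stood at -0.18. These 3 members were at an unadjusted p under 0.05, against 2.36% of all genes that were lower at that threshold and 0% that were called. Each was lower in 3 of 4 dissection batches, and only 4 of 28 members were above 0, against 49.1% of all genes.

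The 2 drugs were also compared directly, at doses that differ (550 ppm celecoxib and 1323 ppm naproxen). Ccl6 stood at 129.5 ± 31.1 CPM with celecoxib and at 80.1 CPM with naproxen, and 7 of 7 naproxen animals lay below the celecoxib median. The log2 difference of naproxen minus celecoxib was -0.72 (SE 0.23, 95% interval -1.18 to -0.26, unadjusted p 0.00316, edgeR adjusted p 0.129), and it was lower in 4 of 4 batches. It was called, with an edgeR adjusted p of 0.0488, when naproxen animal 6 was left out. Over the fits with 1 library left out, between 0 and 498 of all genes were called in this comparison. For Ccl7 the log2 difference between the drugs was -0.84 (95% interval -1.902 to 0.2251, unadjusted p 0.118).

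Ccl19 was higher with naproxen than with celecoxib by 2.30 on the log2 scale (unadjusted p 0.0254) and Cxcl12 by 0.72 (unadjusted p 0.0315). Both depended on naproxen animal 4, without which they were 1.17 and 0.35. In total 3 members were higher and 1 lower at that threshold, of 28, against 11% and 7.69% of all genes, and 0% of all genes were called. None of the 7 inflammatory CC chemokines was above 0, with a median of -0.47 and Ccl2 closest to 0 at -0.01. B cell marker sums had a median of 49.1 CPM with naproxen and 6.24 CPM with celecoxib, and macrophage markers a median log2 difference of 0.49, and their part was not tested.

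Tryptophan alone in the jejunum had Cxcl10, an interferon-inducible ligand of Cxcr3, as the member with the smallest p. It ranged from 1.49 to 7.03 CPM in controls and from 0.866 to 3.53 CPM with tryptophan, with 7 of 8 treated animals below the control median. Cxcl10 differed by -0.87 on the log2 scale (SE 0.30, 95% interval -1.48 to -0.26, unadjusted p 0.00658, edgeR adjusted p 0.999). Ccl5 at -1.02 (unadjusted p 0.0114), Ccl8 at -1.15 (unadjusted p 0.0337) and Ccl7 at -0.98 (unadjusted p 0.0358) followed. In all 8 treated animals Ccl5 and Ccl8 stood below the control median.

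Those 4 members, of 28, were lower at an unadjusted p under 0.05, against 1.52% of all genes, and 0% of all genes were called. The 7 inflammatory CC chemokines were all below 0, with a median of -0.23, and 4 of 28 members were above 0, against 49.3% of all genes. Ccl5 and Ccl8 were lower in 4 of 4 dissection batches and Cxcl10 in 3 of 4. Celecoxib, naproxen and tryptophan were each set against the same 8 control jejuna, so like signs in the 3 comparisons share those animals.

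Naproxen plus tryptophan against control had its smallest p at Cxcl5, a neutrophil attractant of epithelium. It ranged from 0 to 0.804 CPM in controls, from 0.0574 to 0.731 CPM with naproxen and from 0.484 to 3.45 CPM with both agents. All 7 animals with both agents stood above the control median, and the highest, animal 2, also held the highest neutrophil marker sum of the group, 11.5 CPM against a group median of 4.97 CPM. The log2 difference against control was 1.64 (SE 0.53, 95% interval 0.57 to 2.71, unadjusted p 0.00375, edgeR adjusted p 0.716), and it was higher in 4 of 4 batches.

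Ccl6 at -0.60 (unadjusted p 0.012) and Ccl25 at -0.34 (unadjusted p 0.0203) were lower with both agents than in controls, in 4 of 4 batches. In this comparison 1 member was higher and 2 lower at that threshold, of 28, against 2.53% and 3.45% of all genes, and 0% of all genes were called. The members were split around 0, with 14 of 28 above it, against 53.5% of all genes.

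Set against naproxen alone, the jejuna given both agents lay higher for Ccl7. All 7 stood above the naproxen median, and the ranges, 0 to 0.301 and 0.280 to 1.897 CPM, overlapped between 0.280 and 0.301 CPM. The log2 difference was 2.08 (SE 0.51, 95% interval 1.05 to 3.11), with an unadjusted p of 0.000234 and an edgeR adjusted p of 0.996. Cxcl5 at 1.69 (unadjusted p 0.00322), Ccl12 at 1.39 (unadjusted p 0.0124) and Ccl8 at 1.36 (unadjusted p 0.0151) also lay higher, and Ccl7, Cxcl5 and Ccl12 did so in 4 of 4 batches.

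Thus 4 of 28 members were higher and none lower at an unadjusted p under 0.05, against 1.52% of all genes that were higher at that threshold and 0% that were called. The 7 inflammatory CC chemokines were all above 0, with a median of 0.78. B cell markers ran the opposite way: their sums were 4.75 to 92.9 CPM with naproxen and 1.15 to 12.7 CPM with both agents, 8 of 8 markers were lower at an unadjusted p under 0.05 with a median log2 difference of -4.22, and 0 were called. For this comparison the share of all genes lower at that threshold is not given here. The part of B cells in the chemokine differences was not tested.

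The interaction asks whether naproxen and tryptophan together differ from the sum of their separate differences. Ccl7 had the smallest p, with an interaction of 3.07 on the log2 scale (SE 0.68, 95% interval 1.69 to 4.44, unadjusted p 6.95e-05, edgeR adjusted p 0.772, DESeq2 adjusted p 0.0166). Ccl8 at 2.51 (unadjusted p 0.00182), Ccl5 at 1.71 (unadjusted p 0.00433), Cxcl10 at 1.08 (unadjusted p 0.0181), Cxcl5 at 1.89 (unadjusted p 0.0193) and Cxcl1 at 2.29 (unadjusted p 0.0366) were also at an unadjusted p under 0.05. Those 6 of 28 were all above 0, against 1.43% of all genes that were higher at that threshold and 0% that were called. The 4 groups of this contrast are the same animals as in the comparisons above, so it adds no independent sample.

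**Figure D3:**
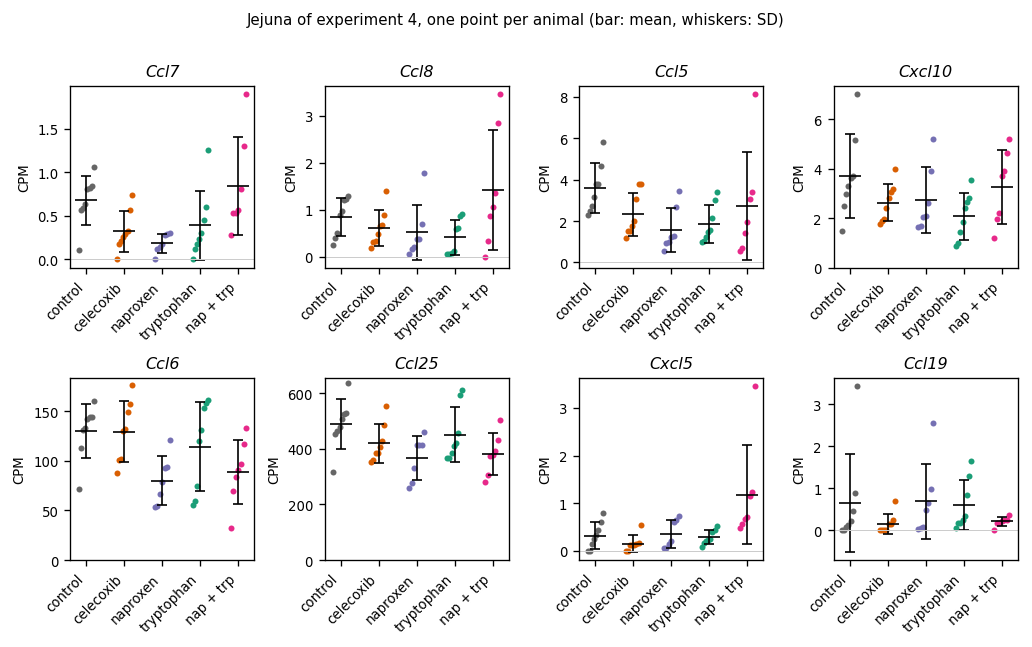
CPM of 8 members in each jejunum of experiment 4, 1 point per animal, with mean and SD, in the 5 groups of 7 or 8 animals. Ccl7 stays at or below 0.301 CPM with naproxen and reaches 1.897 CPM with both agents, and Cxcl5 lies between 0.484 and 3.45 CPM with both agents.

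**Figure D4:**
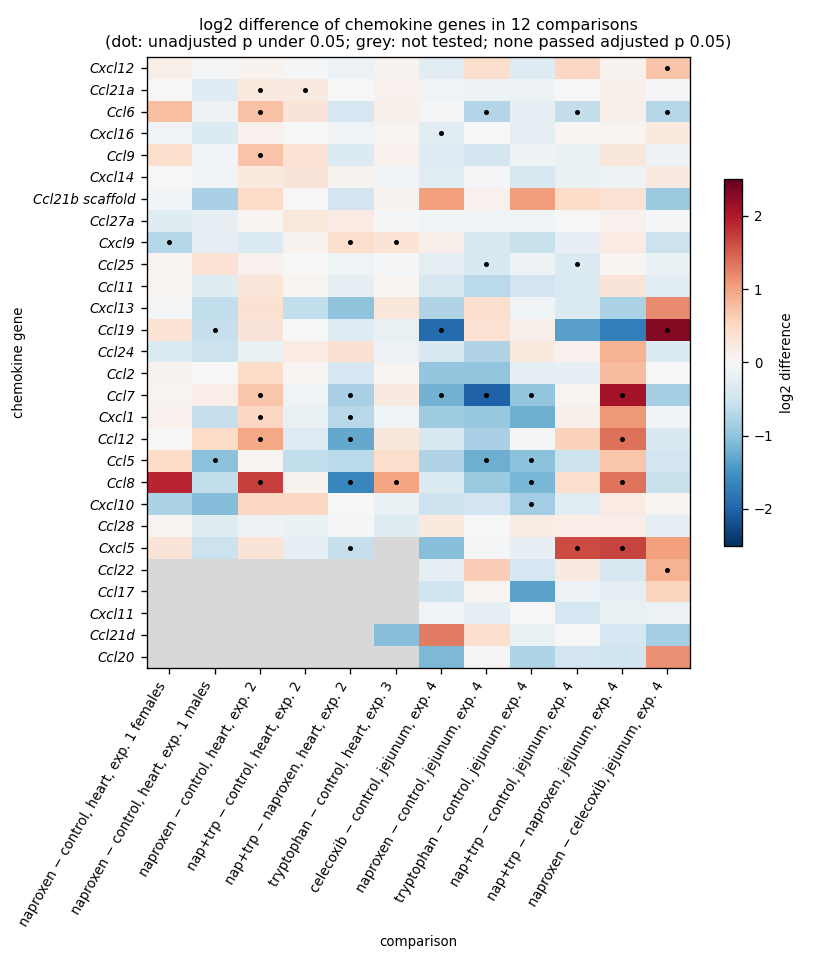
Log2 difference of each tested member in the 12 comparisons of 2 groups, as colour; a dot marks an unadjusted p under 0.05 and grey a member that was not tested. In the heart the inflammatory CC members lie above 0 with naproxen in experiment 2 and below 0 for naproxen plus tryptophan against naproxen, and in the jejunum the signs of those 2 comparisons are the other way round.

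Comparisons of the same treatment in the 2 tissues stood in different experiments, libraries and animals, and the difference between tissues was not tested. Side by side, Ccl8 differed by 1.72 with naproxen in experiment 2 hearts, by 1.91 in experiment 1 females (-0.79 without 1 animal) and by -0.92 in the jejunum (95% interval -2.00 to 0.16). In experiment 1 males Ccl8 ran the other way, with a mean of 0.337 CPM with naproxen and 0.518 CPM in controls. Ccl12 differed by 0.96 in experiment 2 hearts and by -0.81 in the jejunum (95% interval -1.87 to 0.26). In experiment 1 hearts Ccl12 averaged 0.691 CPM with naproxen and 0.688 CPM in controls for females. For males the means were 0.435 and 0.311 CPM. Epithelial members, among them Ccl25, Ccl28 and Cxcl16, held 1 of 6 tested at an unadjusted p under 0.05 with naproxen in the jejunum. In each heart experiment they held 0 of 5.

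Of the 20 chemokine receptor genes listed, 9, 12, 9 and 16 were tested in experiments 1 to 4. In hearts given naproxen plus tryptophan against naproxen alone, Ccr1, a receptor of Ccl5 and Ccl7, had a log2 difference of -1.07 and Cx3cr1, the receptor of Cx3cl1 on monocytes and resident macrophages, one of -1.13, neither called. With naproxen against control in hearts of experiment 2, Ccr1 differed by 1.11 (unadjusted p 0.000278) and Cxcr2, the neutrophil receptor for Cxcl1 and Cxcl5, by 2.13 (unadjusted p 0.000388), neither called by edgeR.

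The Ccl21 genes need a separate account, because the copies whose sequences were compared are nearly the same. Over 870 transcript bases, Ccl21a and Ccl21d differed at 6 (99.31% identity). Ccl21b stands here for its chromosome 4 row, and the sequence of the scaffold copy of Ccl21b was not compared. In the 402 bases of coding sequence, Ccl21b and Ccl21d were identical. Ccl21a differed from both by T84A and C194T, counted from the A of the start codon with the base of Ccl21a first. A stretch of coding bases 54 to 114 from the GENCODE transcripts is shown because it holds the first of these differences, in capitals.
Ccl21a: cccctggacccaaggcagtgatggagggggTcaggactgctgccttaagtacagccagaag
Ccl21b: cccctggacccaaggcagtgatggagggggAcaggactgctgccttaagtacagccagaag
Ccl21d: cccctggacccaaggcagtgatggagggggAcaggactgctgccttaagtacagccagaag
A read that covers none of the differing positions fits more than 1 copy, so the split of reads between copies rests on the authors' estimation.

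In 65 of 97 libraries the scaffold copy of Ccl21b was above 0 and Ccl21d was at 0, in 22 libraries it was the reverse, in 3 both were above 0 and in 7 neither was. A few libraries also held counts on other copies. Among the 65, control heart 8 of experiment 2 held 1.01 CPM on the scaffold copy and 6.79 CPM on other copies. The values of single copies are therefore uncertain, and the Ccl21a row is an estimate from the same split. Summed over copies, Ccl21 averaged 11.3 ± 3.91, 24.8 ± 4.25 and 23.0 ± 2.85 CPM in the heart experiments in order and 10.6 ± 7.82 CPM in the jejunum. With copies summed, no comparison called the gene, and naproxen plus tryptophan against control in the heart gave a log2 difference of 0.20 (edgeR unadjusted p 0.0766, adjusted p 0.343).

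**Figure D5:**
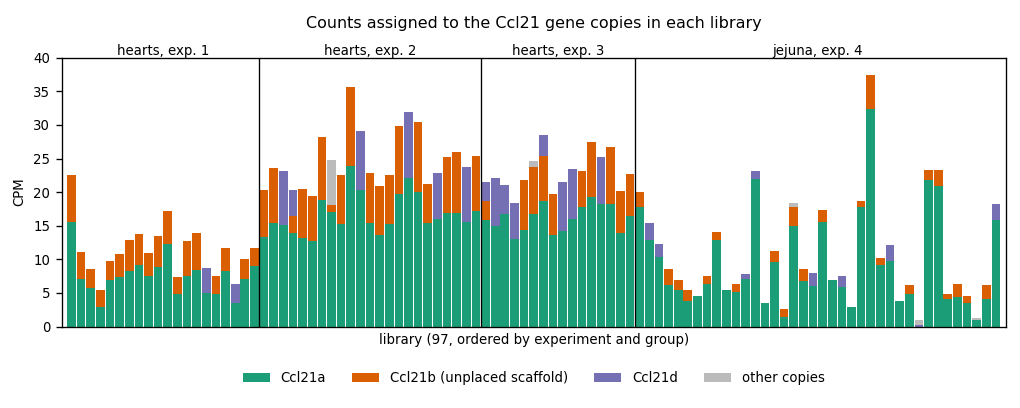
Stacked CPM of Ccl21a, the scaffold copy of Ccl21b, Ccl21d and the other copies in each of the 97 libraries, ordered by experiment and group. Ccl21a makes up more than 50% of the sum in 96 of 97 bars, and the remainder is assigned either to the scaffold copy (65 libraries) or to Ccl21d (22 libraries), and to both in 3.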

How the data were processed

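The authors deposited gene-level estimated counts. Per the submitters' processing notes, Salmon 1.9.0, R 4.2.2 and GRCm38 were used, and the sources used here do not give the step from transcripts to genes. Of the values, 24.66% were not whole, and all were rounded here. R 4.3.3 with edgeR 4.0.16, limma 3.58.1 and DESeq2 1.42.0 was used. For each experiment 1 model held all its groups: filterByExpr (minimum count 10), TMM scaling, robust quasi-likelihood fit, two-sided F tests, Benjamini-Hochberg adjustment over all tested genes, and a call under 0.05. Dissection batch was a term in experiments 3 and 4. Standard errors are the log2 difference divided by the root of F, and 95% intervals use the t quantile of the fit. Errors after ± are SDs over animals. The fits were tested on simulated data.

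The members and gene lists were chosen with earlier results of these data known. Named with full values were called members, else the 3 members with the smallest p in a comparison, and the 5 highest per kilobase in each tissue; members at an unadjusted p under 0.05 are given besides, more briefly. Gene coordinates and Ccl21 transcripts are from the GENCODE annotation of the same build, matched by Ensembl identifier, and promoters from RefSeq. Per the labels, libraries came from separate animals. Alternatives were RLE size factors, DESeq2, limma voom, no filter, a replicate block, no dissection batch, 2 groups only, summed Ccl21 copies (chosen after seeing the data) and each library left out. The result of 1 listed gene is not reported here.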

Additional observations from a re-analysis of the deposited data

Results flagged for a closer look

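Among the members named for their p-values, 63 pairs of member and group were looked at for 1 animal standing apart from the rest of its group, and this was so in 11 of them. In each case the gap between that animal and its nearest neighbour was above the 95% limit of Dixon's test for the group's size. Chance flags about 1 in 20 independent groups of normally distributed values. These members were picked for small p-values in the same groups, and groups recur, so that rate cannot measure an excess here.

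In hearts of experiment 1, naproxen female 3 held 14.17 CPM of Ccl8 against 0.1017 to 1.486 CPM in the others, and 48.99 CPM of Ccl6 against 5.592 to 13.19 CPM. Control female 5 held 2.658 CPM of Ccl8 against 0.1682 to 0.61 CPM, and its neutrophil marker sum, 20.7 CPM, was the highest of that group. Control female 4 held 5.744 CPM of Cxcl9 against 4.08 to 4.387 CPM. In hearts of experiment 2, animals given naproxen plus tryptophan stood apart for Ccl5 (animal 4, 0.8657 CPM against 0.2225 to 0.4728), for Ccl27a (animal 1, 6.971 CPM against 4.21 to 5.485) and for Cxcl1 (animal 3, 0.6826 CPM against 0.3215 to 0.4832).

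In jejuna, Ccl19 stood apart in celecoxib animal 1 (0.6947 CPM against 0 to 0.2461), in control animal 5 (3.432 CPM against 0 to 0.8809) and in naproxen animal 4 (2.547 CPM against 0.03762 to 0.9757). Control animal 5 and naproxen animal 4 also held the highest B cell marker sums of their groups, 157.5 and 92.9 CPM, and celecoxib animal 1 held the highest of its group, 67.8 CPM. The part of lymphoid cells in these Ccl19 levels was not tested. Cxcl5 stood apart in naproxen plus tryptophan animal 2, at 3.45 CPM against 0.4841 to 1.241 CPM.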

How the results depend on the processing

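With RLE size factors, limma voom, the replicate block, no dissection batch, only the 2 groups compared or the Ccl21 copies summed, 0 members were called in every comparison run. DESeq2 called 1 member in each of 4 comparisons: Ccl12 for naproxen plus tryptophan against naproxen in the heart (log2 difference -1.28), and Ccl7 in the jejunum for naproxen against control (-2.06), naproxen plus tryptophan against naproxen (2.12) and the interaction (3.13). Without a filter on low counts, edgeR called 1 member for tryptophan in the heart (Ccl21d) and, in the jejunum, 2 for celecoxib, 6 for naproxen, 2 for tryptophan, 3 for naproxen plus tryptophan against control, 4 against naproxen, 6 for naproxen against celecoxib and 3 for the interaction. That fit also called 179 genes of all genes for tryptophan in the heart and 1182 for naproxen in the jejunum, against 0 and 2 with the filter. DESeq2 called 94 genes for the latter. For the other comparisons, counts over all genes without the filter or by DESeq2 are not given here. The member counts there have no background beside them and cannot be read as particular to chemokines. Leaving out 1 library in turn gave 0 to 1 members called for naproxen plus tryptophan against naproxen in the heart (Ccl12, without control 8, naproxen 4 or naproxen plus tryptophan 4) and 0 to 1 for naproxen against celecoxib (Ccl6, without naproxen 6), and 0 elsewhere. In those 2 comparisons the genes called among all genes ran from 0 to 42 and from 0 to 498. Over these fits the naproxen difference of Ccl8 in experiment 1 females ran from -0.79 to 3.04, that of Ccl6 from -0.03341 to 1.15, and the difference of Ccl8 between the sexes from -3.66 to 0.17; the reversals came without naproxen female 3. Of 346 values of named members under other settings, 321 kept direction and side of the threshold. Median log2 differences over all genes moved by at most 0.01673 with RLE size factors.

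Per the labels, replicate numbers do not pair the animals. Same-numbered libraries deviated together (correlation over 0.1) in 3 of 10, 8 of 22, 2 of 8 and 22 of 73 pairs in experiments 1 to 4. Their median correlations were 0.0015, 0.043, -0.203 and 0.0085, against 0.0012, 0.013, 0.037 and -0.005 for pairs with different numbers. The replicate block called 0 members in each of 14 comparisons, as did the main fit, so that count cannot bear on pairing. Depth limits the low members most: 1 read was worth up to 0.09677 CPM in a jejunum library, so differences among Ccl7, Ccl12, Cxcl5 and Ccl19 there rest on few reads.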

Other observations

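Several members below the counts needed for testing were uneven between animals. Cxcl17, a mucosal chemokine, had group medians of at most 0.0233 CPM in experiment 2 hearts, yet 1 naproxen heart held 3.24 CPM and 1 heart given both agents held 2.69 CPM. Cxcl2 reached 1.901 CPM in 1 control heart of experiment 3, whose group median was 0.0779 CPM.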
